A study of Mus musculus with 6 samples.

Results

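The S100 genes encode small calcium-binding proteins with EF-hand motifs, most of which work as dimers. Inside cells they bind annexins, cytoskeletal proteins and enzymes when calcium rises, and several are also released and bind receptors such as RAGE and TLR4. In cartilage, S100b and S100a1 are known as products of differentiated chondrocytes. The proteins of S100a8 and S100a9 form calprotectin, an abundant product of neutrophils and monocytes that is used as a marker of joint inflammation. The 10 genes described here are S100a1, S100a4, S100a6, S100a8, S100a9, S100a10, S100a11, S100a13, S100a16 and S100b, taken by gene symbol from a table of 47480 genes. All 10 symbols were found, and 7 further S100 symbols in the table are described by level only.

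Primary chondrocytes, the cells of cartilage, came from neonatal mice of 2 genotypes. The A2ARKO mice lack the adenosine receptor encoded by Adora2a in the whole body and are on a C57BL/6 background. The WT mice are C57BL/6 and were kept in the same facility. Each of the 3 A2ARKO and 3 WT libraries was made from the trypsinized cells of 1 entire litter, so p-values measure the spread between litters. Which part of Adora2a was deleted was not stated in the sources used here. The stated purpose was to find what drives osteoarthritis, a degenerative joint disease.

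Values are FPKM as the authors deposited them, that is, fragments scaled by gene length in kilobases and by library size in M fragments (M, mega). Depth was estimated from the steps between low values, at 41.3 to 58.1 M reads per library. Adora2a read 0.41, 0.54 and 0.66 FPKM in A2ARKO replicates 1, 2 and 3, against 9.36, 7.31 and 3.46 FPKM in WT replicates 1, 2 and 3, so every A2ARKO library was below every WT library. Its log2 fold change was -2.25 (limma adjusted p = 0.0203). Adora2a passed the filter (3 or more libraries at 1 FPKM or above) only through the WT libraries, so this p is given as a description. With no filter on low values the limma adjusted p was 0.0533. By an exact permutation test, two-sided, p was 0.1, and 3 against 3 libraries cannot give a smaller one. Cartilage markers were present in every library at very unequal levels: the collagen gene Col2a1 ranged from 1363 to 3887 FPKM in A2ARKO and from 185 to 18662 FPKM in WT. Matn1, a cartilage matrix gene, read only 0.57 FPKM in WT replicate 3. Replicates within the lists of 3 values below are in the order 1, 2, 3.

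Of the 9 S100 genes that passed the filter (3 or more libraries at 1 FPKM or above), S100a4 and S100a13 rose in A2ARKO chondrocytes, none fell and 7 did not pass the test at an adjusted p below 0.05. Among all 11595 genes tested, 5.08% were called, 3.31% as higher and 1.77% as lower. The share of higher genes among all calls was 65.2%, and 51.1% after the libraries were rescaled to the same sum. The lowest A2ARKO library lay above the highest WT library for 6 of the 9 genes, S100a1, S100a4, S100a6, S100a11, S100a13 and S100a16, where this held for 18% of all tested genes. No S100 gene lay wholly below WT, as 14.9% of all tested genes did, and 32.9% of tested genes were separated in either direction. These counts used FPKM as deposited, with column sums from 231094 to 300779, and were not repeated after rescaling. The median log2 fold change was 0.49 over the 9 genes and 0.0020 over all tested genes. S100a8 passed the filter through the A2ARKO libraries and 1 WT library, and S100a9 did not pass it.

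**Figure D1:**
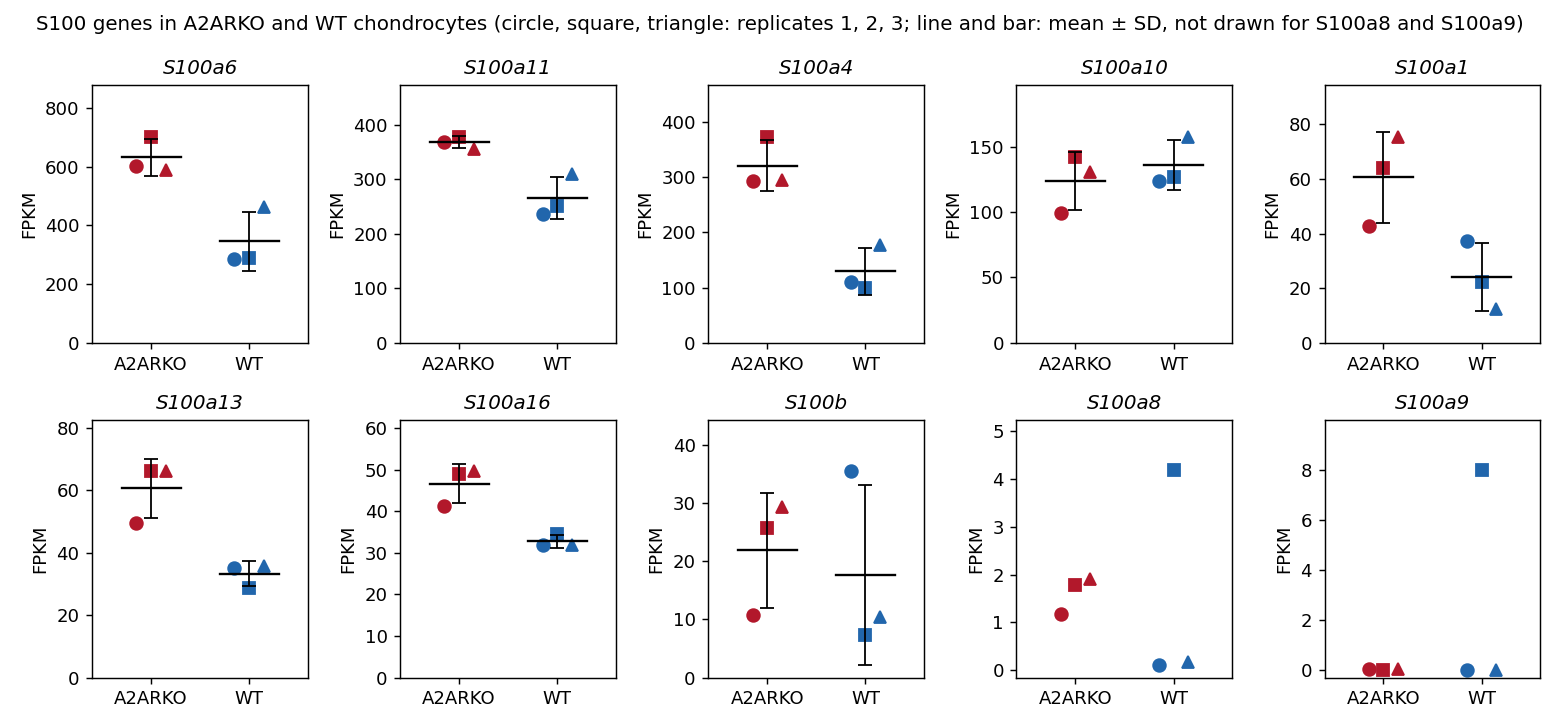
FPKM (y axis, linear) of the 10 S100 genes in A2ARKO libraries (red, left) and WT libraries (blue, right). Circles, squares and triangles are replicates 1, 2 and 3, and lines with bars are the mean ± SD of 3 libraries, not drawn for S100a8 and S100a9. A2ARKO lies wholly above WT for S100a6, S100a11, S100a4, S100a1, S100a13 and S100a16.

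By level, the family was dominated by 4 genes. S100a4, S100a6, S100a10 and S100a11 together held 86.0% to 90.4% of the summed FPKM of the 10 genes in A2ARKO libraries and 84.4% to 92.4% in WT libraries. The sum of the 10 genes was 1507, 1802 and 1591 FPKM in A2ARKO, against 895, 872 and 1196 FPKM in WT. As a share of all FPKM in the library it was 0.560%, 0.663% and 0.529% in A2ARKO, against 0.305%, 0.344% and 0.518% in WT. By that share, WT replicate 3 was close to A2ARKO replicate 3. In A2ARKO the order of mean levels was S100a6, S100a11, S100a4, S100a10, S100a1, S100a13, S100a16, S100b, S100a8 and S100a9. The ranges of neighbours in that order overlapped for S100a11 with S100a4 and for S100a1 with S100a13. In WT the order was S100a6, S100a11, S100a10, S100a4, S100a13, S100a16, S100a1, S100b, S100a9 and S100a8. In WT only the steps between S100a11 and S100a10 and between S100a4 and S100a13 separated without overlap.

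S100a4, whose protein binds non-muscle myosin and is also a marker of fibroblasts and of some leukocytes, rose most among the called S100 genes. It read 293, 373 and 294 FPKM in A2ARKO libraries, against 109.8, 99.98 and 178 FPKM in WT libraries. Every A2ARKO library was above every WT library, and WT replicate 3 was the highest WT library. The mean was 320.0 ± 46.1 FPKM in A2ARKO and 129 ± 42.4 FPKM in WT (SD, n = 3 each), a log2 difference of 1.34 (SE 0.25, limma adjusted p = 0.0429). The call was kept without WT replicate 3 (log2 fold change 1.59, adjusted p = 0.0177). It was lost when any of the other 5 libraries was left out, at adjusted p of 0.0598 to 0.175, and after rescaling to the same sum (1.22, adjusted p = 0.0921).

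Beside S100a4, the summed level of 7 fibroblast markers was 2427 to 4336 FPKM in A2ARKO libraries and 6476 to 8820 FPKM in WT libraries. Of those markers, Dpt fell, 6 did not pass, and none was listed at 0. The summed level of 12 macrophage and monocyte markers was 26.0 to 51.1 FPKM in A2ARKO and 130.1 to 1877 FPKM in WT. C1qa and Aif1 were listed at 0 in A2ARKO replicate 3. Of the 10 tested, 0 were called by limma (6 at an unadjusted p below 0.05, all 6 lower), where 5.08% of all tested genes were called. Among those 6, C1qa, C1qb and C1qc passed the filter only through the WT libraries. Their lower direction was thus built into the choice of genes. The share of all tested genes at that unadjusted p was not taken. The fibroblast sum was mostly that of the collagen genes Col1a1, Col1a2 and Col3a1, while Pdgfra and Thy1 had log2 fold changes of 0.02 and 0.03. The part of these cells in the level of S100a4 was not tested. In bulk RNA, fewer cells of a type and less RNA per cell cannot be told apart.

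S100a6, encoding calcyclin, a partner of annexins and of the ubiquitin-ligase adaptor CacyBP, was the most abundant of the 10 genes in both genotypes. Its level was 601, 702 and 589 FPKM in A2ARKO, against 286, 289 and 461 FPKM in WT. The groups did not overlap, and WT replicate 3 was again the highest WT library. The log2 fold change was 0.90 (SE 0.25, 95% interval 0.30 to 1.5) and did not pass (limma adjusted p = 0.0927). Without WT replicate 3 it passed, at 1.13 (adjusted p = 0.0384). After rescaling to the same sum it was 0.78 (adjusted p = 0.221). S100a6 exceeded S100a4 2.05-, 1.88- and 2.0-fold in A2ARKO libraries and 2.60-, 2.89- and 2.59-fold in WT libraries, as a ratio of FPKM.

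S100a11 and S100a10 encode the partners of annexin A1 and annexin A2, with which they form calcium-dependent membrane-binding complexes. S100a10 is unusual in that its protein no longer binds calcium. S100a11 read 368, 378 and 356 FPKM in A2ARKO, against 236, 252 and 309 FPKM in WT. Its groups did not overlap, but the log2 fold change of 0.48 (SE 0.16, 95% interval 0.084 to 0.87) did not pass (limma adjusted p = 0.141). After rescaling to the same sum, that of S100a11 was 0.36 (adjusted p = 0.434). S100a10 read 99.3, 142 and 130.25 FPKM in A2ARKO, against 123.5, 127 and 158 FPKM in WT. Its groups overlapped, and its log2 fold change of -0.14 had an interval from -0.58 to 0.30 (adjusted p = 0.682). S100a10 was the only tested S100 gene of the 10 with a log2 fold change below 0.

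**Figure D2:**
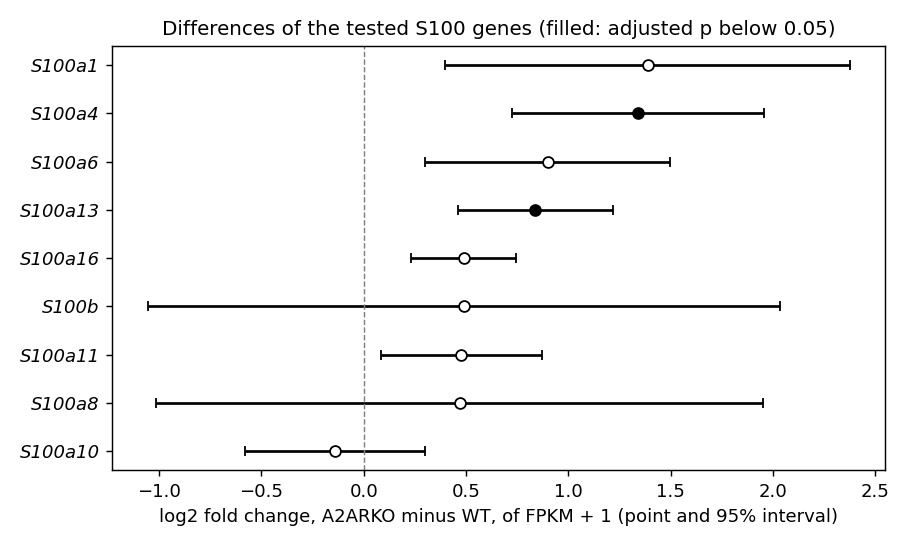
Log2 fold change of FPKM + 1, A2ARKO minus WT (x axis), for the 9 tested S100 genes (y axis). Points are limma estimates, bars are 95% intervals, and filled points passed at an adjusted p below 0.05. S100a4 and S100a13 are filled, and only S100a10 lies below 0.

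On mm10, 9 of the 10 genes lie on chromosome 3, in the region known for its S100 cluster. S100a1 (chr3:90511034-90514392, minus strand) and S100a13 (chr3:90514435-90524581, plus strand) are transcribed away from each other, with 42 bases between the annotated genes. S100a16 (chr3:90537254-90543151), S100a4 (chr3:90603771-90606045), S100a6 (chr3:90612882-90624181) and S100a8 (chr3:90668978-90670035), all on the plus strand, and S100a9 (chr3:90692632-90695721, minus strand) follow within 185 kb. S100a11 (chr3:93520488-93526287) and S100a10 (chr3:93555080-93564643), on the plus strand, lie 2.82 Mb farther on. Whether the counting used strand was not stated in the sources used here, and reads that overlap neighbouring or antisense genes cannot be told apart.

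**Figure D3:**
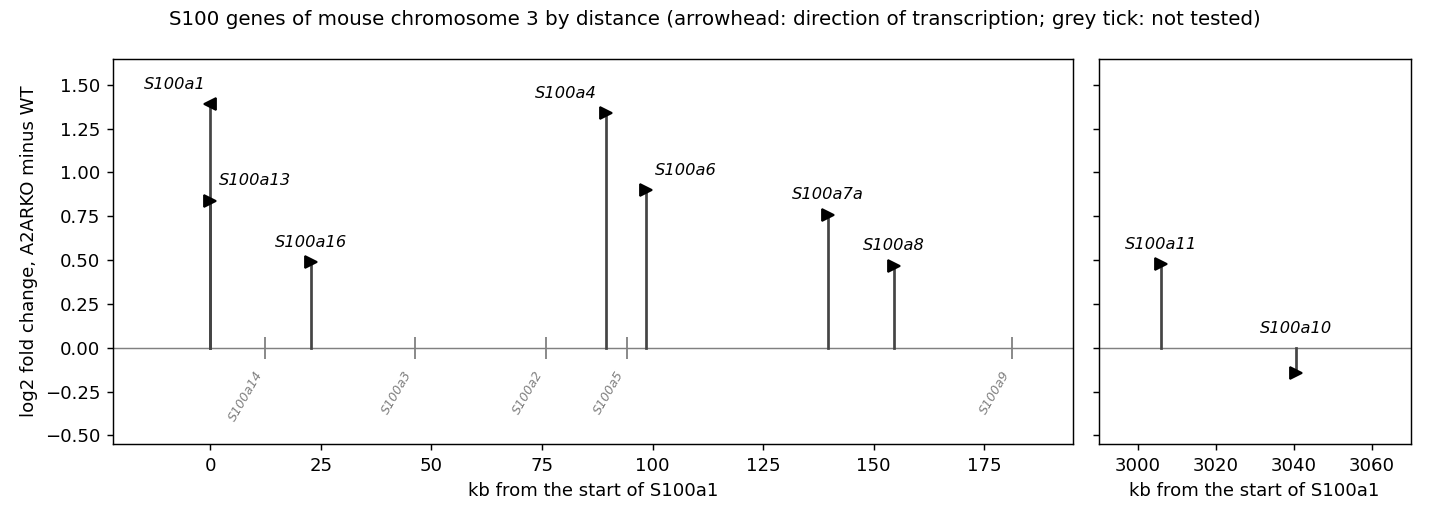
S100 genes of chromosome 3 by the distance of their start from that of S100a1 in kb (x axis, broken) and their log2 fold change, A2ARKO minus WT (y axis). Arrowheads give the direction of transcription and grey ticks mark genes that were not tested. S100a1 and S100a13 start beside each other, and S100a10 is the only one drawn below 0.

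The stretches below, from RefSeq on GRCm38.p6, the assembly named mm10, are shown for the called genes S100a4 and S100a13 (with S100a1, which shares the stretch) and for S100a11, whose window held the most matches. They were chosen after the matches were seen, and those of S100a6 and S100a16 are not printed. A window was available for 9 of the 10 genes. The stretch between the RefSeq starts of S100a1 and S100a13 is shared by both genes (chr3:90514331-90514434, plus strand, 104 bases). The others are the 250 bases before the starts of S100a4 (chr3:90603520-90603769, plus strand) and S100a11 (chr3:93520246-93520495, plus strand). Capitals mark matches, on either strand, to the letters searched.
S100a1/S100a13: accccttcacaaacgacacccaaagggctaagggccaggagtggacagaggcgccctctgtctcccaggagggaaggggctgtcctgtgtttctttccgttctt
S100a4: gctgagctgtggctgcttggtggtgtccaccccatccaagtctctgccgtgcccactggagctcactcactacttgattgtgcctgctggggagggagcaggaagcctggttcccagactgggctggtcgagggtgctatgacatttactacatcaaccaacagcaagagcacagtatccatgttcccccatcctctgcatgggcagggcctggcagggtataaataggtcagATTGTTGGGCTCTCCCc
S100a11: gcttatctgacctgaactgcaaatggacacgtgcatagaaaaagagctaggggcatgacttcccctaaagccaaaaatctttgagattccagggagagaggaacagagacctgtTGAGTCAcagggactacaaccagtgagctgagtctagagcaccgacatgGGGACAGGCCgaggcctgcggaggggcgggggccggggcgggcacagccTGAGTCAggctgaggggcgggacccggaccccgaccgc

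The letters searched were TGANTCA (AP-1), TGACGTCA and its part TGACGT (the cAMP response element), the kappaB motif (GGGA and CC with any 4 bases between them), AACAAT (SOX factors) and TTGNNNCAA (C/EBP). In the 250 bases before 32851 RefSeq mouse starts they occurred in 6.75%, 1.55%, 6.47%, 17.6%, 9.42% and 5.02% of windows. S100a11 held TGANTCA at 2 places, as did 0.338% of all windows, and 1 kappaB match. S100a4 held adjacent SOX and kappaB matches just before its start. S100a16 held 1 AP-1 and 1 SOX match in 1 of its windows, and S100a6 held none. The stretch between S100a1 and S100a13 held none of the letters, and TGACGT occurred in the S100a13 window beyond the start of S100a1. These are matches of letters only, and no binding was measured.

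S100a13, which is widely expressed and whose protein takes part in the non-classical release of FGF1 and interleukin 1 alpha, rose. It read 49.7, 66.1 and 66.0 FPKM in A2ARKO, against 35.2, 28.8 and 35.9 FPKM in WT. All A2ARKO libraries were above all WT libraries, and the WT values were close to each other. The mean was 60.6 ± 9.47 FPKM in A2ARKO and 33.3 ± 3.92 FPKM in WT (SD, n = 3 each), with a log2 fold change of 0.84 (SE 0.15, limma adjusted p = 0.0411). Without WT replicate 1 it still passed (0.88, adjusted p = 0.0475). It did not pass when any of the other 5 libraries was left out, at adjusted p of 0.0520 to 0.174, nor after rescaling to the same sum (0.72, adjusted p = 0.0808). Fgf1 was below the filter, at 0.09 to 0.19 FPKM in A2ARKO and 0.13 to 0.26 FPKM in WT. Il1a was also below it, at 0.91, 0.49 and 0.46 FPKM in A2ARKO, against 0, 0.17 and 0.01 FPKM in WT.

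S100a1, the divergent neighbour of S100a13, encodes a protein best known for regulating calcium handling in heart muscle. It read 42.7, 63.8 and 75.5 FPKM in A2ARKO, against 37.3, 22.2 and 12.6 FPKM in WT. The groups were separated by a narrow gap between A2ARKO replicate 1 and WT replicate 1. Its log2 fold change was 1.39 (SE 0.41, 95% interval 0.40 to 2.38) and did not pass (limma adjusted p = 0.106). Without WT replicate 1 it was 1.76 and passed (adjusted p = 0.0417). S100a13 over S100a1, as a ratio of FPKM, was 1.16, 1.04 and 0.87 in A2ARKO libraries and 0.94, 1.29 and 2.85 in WT libraries, so the pair did not keep a fixed ratio.

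S100a16, a widely expressed member, read 41.2, 49.05 and 49.6 FPKM in A2ARKO, against 31.9, 34.6 and 31.9 FPKM in WT. The groups did not overlap and the spread was small in both. Its log2 fold change was 0.49 (SE 0.11, 95% interval 0.23 to 0.75) and fell just short of the threshold (limma adjusted p = 0.0558). It passed under 1 alternative, library weights estimated by limma, at 0.54 (adjusted p = 0.0272). After rescaling to the same sum it was 0.37 (adjusted p = 0.215), and with each library left out the adjusted p was 0.0733 to 0.223.

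S100b encodes a secreted and intracellular protein known from glia, Schwann cells and chondrocytes. It lies on chromosome 10 (chr10:76253853-76261159, plus strand), 0.919 Mb from Adora2a (chr10:75316877-75334784, plus strand). S100b read 10.7, 25.7 and 29.2 FPKM in A2ARKO, against 35.4, 7.26 and 10.4 FPKM in WT. The groups overlapped fully, with the highest value in WT replicate 1. The log2 fold change was 0.49 (SE 0.63) with a 95% interval from -1.06 to 2.03 (limma adjusted p = 0.687). Among the other 21 tested genes within 1 Mb of Adora2a, 1 was called, and among the 93 within 5 Mb, 4 were (4.3%). Of all tested genes 5.08% were called.

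S100b and S100a1 shared part of their order over the libraries with cartilage genes. Among A2ARKO libraries both were lowest in replicate 1 and highest in replicate 3, and among WT libraries both were highest in replicate 1. Of the 11 tested genes on a list of SOX factors and cartilage genes, 10 showed that same order, as did 13.6% of all tested genes and 2 of the 9 tested S100 genes (22.2%). Between the other WT libraries S100b was higher in replicate 3 than in replicate 2, unlike Col2a1 and Sox9. Between genotypes S100a1 differed from the cartilage genes. Its value in WT replicate 1 (37.3 FPKM) lay below every A2ARKO library (42.7, 63.8 and 75.5 FPKM). S100b, Col2a1 and Sox9 had their highest value of all libraries in WT replicate 1. Col2a1 read 1363, 2939 and 3887 FPKM in A2ARKO and 18662, 808 and 185 FPKM in WT, and Sox9, the main transcription factor of chondrocytes, read 21.2, 31.6 and 35.5 FPKM in A2ARKO and 50.7, 17.3 and 15.3 FPKM in WT. None of the 11 was called by limma (adjusted p), where 5.08% of all tested genes were called. Groups without overlap were found for 0 of the 11, and for 32.9% of all tested genes. Schwann cell and neuron markers, which share S100b, summed to 3.27 to 9.90 FPKM in A2ARKO and 8.68 to 28.1 FPKM in WT, with 0 of 2 tested called. The part of the cartilage and neural genes in the levels of S100b and S100a1 was not tested.

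**Figure D4:**
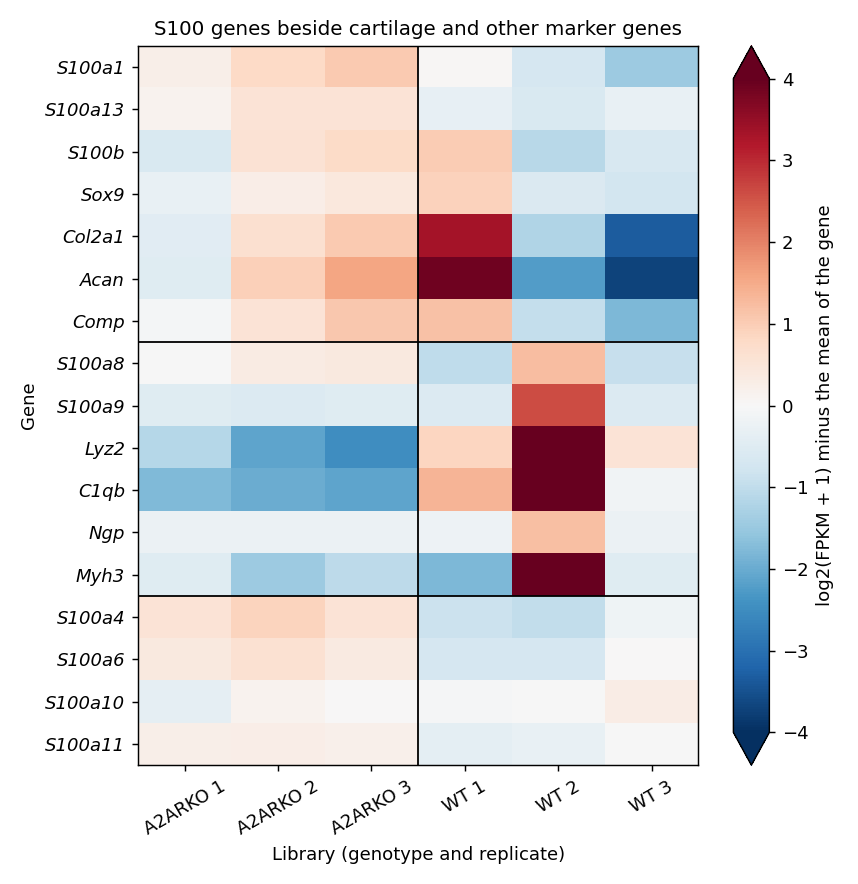
Log2(FPKM + 1) minus the gene's own mean over the 6 libraries (colour) for S100 genes and marker genes (y axis) in the A2ARKO libraries (left of the line) and WT libraries (right). The top block holds S100a1, S100a13 and S100b with cartilage genes, the middle block S100a8 and S100a9 with macrophage, neutrophil and muscle genes, and the bottom block the 4 abundant members. S100a8, S100a9, Lyz2, C1qb, Ngp and Myh3 are highest in WT replicate 2, and Col2a1 and Acan in WT replicate 1.

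The calprotectin genes were low. S100a8 read 1.17, 1.78 and 1.91 FPKM in A2ARKO, against 0.10, 4.19 and 0.16 FPKM in WT. S100a9 was listed at 0.04, 0 and 0.04 FPKM in A2ARKO, against 0, 7.99 and 0 FPKM in WT. S100a9 was thus found almost entirely in WT replicate 2, while S100a8 was also present in all 3 A2ARKO libraries.

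With annotated exon lengths, these levels correspond to roughly 41.5, 71.8 and 69.6 reads of S100a8 in A2ARKO and 2.87, 145 and 5.80 reads in WT. For S100a9 the same estimate gave 1.07, 0 and 1.10 reads in A2ARKO and 0, 207 and 0 reads in WT. The pair was therefore not at a fixed ratio: S100a8 stood at 41.5 to 71.8 reads in A2ARKO libraries that held about 1 read or none of S100a9.

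The log2 fold change of S100a8 was 0.47 with all libraries (95% interval -1.01 to 1.95, limma adjusted p = 0.687). It was 1.48 with a pseudocount of 0.1 and 0.77 with 0.5, and did not pass with either. Without WT replicate 2 it was 1.20 (SE 0.17, adjusted p = 0.0387), but then only A2ARKO libraries reach the filter, so a difference was built into the choice of the gene and this is given as a description. S100a9 had a log2 fold change of -1.02 with no filter on low values (adjusted p = 0.639), and 0.038 without WT replicate 2.

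Markers of other cells moved with these values in WT replicate 2. The 12 macrophage and monocyte markers summed to 1877 FPKM there, against 130.1 and 180 FPKM in the other WT libraries and 26.0 to 51.1 FPKM in A2ARKO. All 10 of them that were tested were highest in WT replicate 2 among WT libraries, as were 30.8% of all tested genes. Of 11 neutrophil markers, Ngp read 1.71, Ltf 0.55 and Stfa2 0.66 FPKM in WT replicate 2 and at most 0.02 FPKM in any other library. The neutrophil list summed to 8.52 to 11.4 FPKM in A2ARKO and 0.33 to 5.57 FPKM in WT, almost all of the A2ARKO sum being Camp, the cathelicidin gene. Camp read 8.70, 8.22 and 11.2 FPKM in A2ARKO, against 0.16, 1.11 and 0.95 FPKM in WT, and rose at a log2 difference of 2.61 (SE 0.25, limma adjusted p = 0.0085). Of the other 10 neutrophil markers, Ngp, Cxcr2, Ly6g, Retnlg and Stfa2 were listed at 0 in all 3 A2ARKO libraries, and of these Cxcr2 and Ly6g read at most 0.02 FPKM in WT libraries too. Mmp8 read 0.47, 0.27 and 0.06 FPKM in A2ARKO, against 0.12, 1.02 and 0.06 FPKM in WT. Elane read 0.04, 0.02 and 0.02 FPKM in A2ARKO, against 0, 0.02 and 0 FPKM in WT, and Mpo was at most 0.01 FPKM in any library. Skeletal muscle markers summed to 846 FPKM in WT replicate 2, against 6.8 and 17.2 FPKM in the other WT libraries and 8.99 to 25.9 FPKM in A2ARKO. The part of these cells in the levels of S100a8 and S100a9 was not tested.

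The 7 other S100 genes in the table were at or near the floor. S100a7a, a gene of the psoriasin group known from skin, was the only one tested, at 1.18, 2.16 and 1.97 FPKM in A2ARKO, against 0.68, 0.42 and 0.77 FPKM in WT. It passed the filter only through the A2ARKO libraries, and its log2 fold change of 0.76 did not pass the test (limma adjusted p = 0.0655). S100a2 read 0.80, 0.38 and 0.36 FPKM in A2ARKO, against 0, 0.06 and 0 FPKM in WT. S100a3, S100a5, S100a14, S100g and S100z stayed at 0.44 FPKM or less in every library. Keratinocyte markers summed to 2.07 to 2.98 FPKM in A2ARKO and 1.48 to 3.43 FPKM in WT.

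Genes for the receptors and co-receptors of released S100 proteins did not pass the test. Of 13 such genes 12 were tested and 0 were called by limma, where 5.08% of all tested genes were called. Their median log2 fold change was 0.25, against 0.0020 over all tested genes, and 3 had an unadjusted limma p below 0.05. The share of all tested genes at that unadjusted p was not taken, so this count is a description. Ager, which encodes RAGE, the receptor of S100B and calprotectin among others, was below the filter at 0.42 to 0.55 FPKM in A2ARKO and 0.33 to 0.49 FPKM in WT. Tlr4, the innate immune receptor of calprotectin, read 6.45, 10.3 and 10.6 FPKM in A2ARKO, against 5.79, 5.37 and 6.66 FPKM in WT (log2 fold change 0.52, adjusted p = 0.166). Sdc4, a heparan sulfate proteoglycan, and Emb, encoding embigin, had the smallest p, with no overlap between the groups. Sdc4 read 255, 341 and 388 FPKM in A2ARKO, against 158, 92.1 and 46.8 FPKM in WT (1.86, adjusted p = 0.0688). Emb read 320.2, 344 and 380.0 FPKM in A2ARKO, against 101.3, 254 and 179.8 FPKM in WT (1.05, adjusted p = 0.127).

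Among 9 annexins, the membrane-binding partners of several S100 proteins, Anxa3 and Anxa1 rose and 7 did not pass (median 0.029). Over all tested genes, 3.31% were called higher and 1.77% lower, and the median log2 fold change was 0.0020. Anxa1 read 260.0, 326 and 312 FPKM in A2ARKO, against 165, 122 and 179 FPKM in WT (log2 fold change 0.96, limma adjusted p = 0.0494). Anxa3 read 70.8, 82.4 and 73.2 FPKM in A2ARKO, against 35.9, 18.0 and 26.8 FPKM in WT (1.5, adjusted p = 0.0302). Anxa2, the partner of S100a10, read 252, 308 and 283 FPKM in A2ARKO, against 247, 247 and 269 FPKM in WT (0.14, adjusted p = 0.606). S100a10 over Anxa2, as a ratio of FPKM, was 0.39 to 0.46 in A2ARKO libraries and 0.50 to 0.59 in WT libraries. Anxa1 lost its call without WT replicate 1 or 2 and without each A2ARKO library, with a pseudocount of 0.1, with no filter, with 1 FPKM required in all 6 libraries, and after rescaling or quantile normalization. Anxa3 lost its call without WT replicate 3, without each A2ARKO library and with no filter.

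A list of 21 further tested partner genes held 3 that rose, 0 that fell and 18 that did not pass (median 0.13). Of all tested genes 3.31% rose and 1.77% fell, with a median of 0.0020. Plaur, the urokinase receptor of the plasminogen system to which S100a10 also belongs, read 16.4, 19.75 and 16.04 FPKM in A2ARKO, against 5.19, 7.21 and 4.81 FPKM in WT (log2 fold change 1.46, limma adjusted p = 0.0117). Mdm2, encoding the inhibitor of p53, and Sdc1, a cell-surface proteoglycan, rose at 1.11 (adjusted p = 0.0154) and 0.83 (adjusted p = 0.0119). The partners of S100a4 and S100a6 inside the cell, Myh9 and Cacybp, did not pass, at 0.13 for Myh9 (adjusted p = 0.838) and 0.19 for Cacybp (adjusted p = 0.545). Without A2ARKO replicate 1, only Mdm2 and Sdc1 of the called annexins and partners passed, and none of them passed without A2ARKO replicate 2 or 3.

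**Figure D5:**
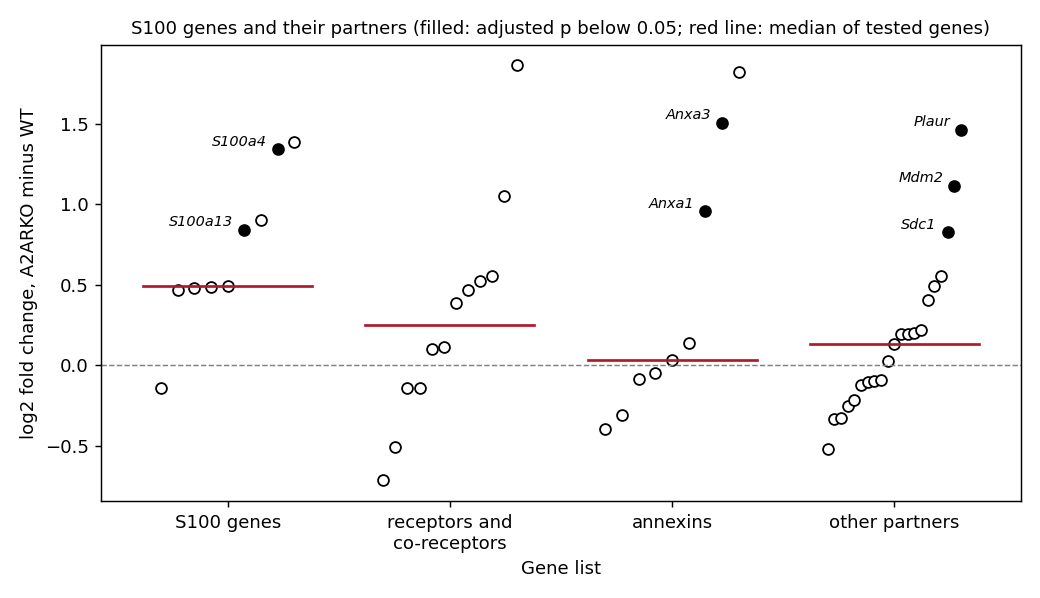
Log2 fold change, A2ARKO minus WT (y axis), of the tested S100 genes, receptors and co-receptors, annexins and other partners (x axis). Each point is a gene, filled points passed at an adjusted p below 0.05, and red lines are medians of the tested genes. The filled points are S100a4, S100a13, Anxa3, Anxa1, Plaur, Mdm2 and Sdc1.

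The genes with profiles most like those of S100a1, S100a4 and S100a6 were found by the mean absolute difference in log2(FPKM + 1) over the 6 libraries, each gene centred on its own mean. For S100a1 they were Pfkfb3, a regulator of glycolysis, the adenylate kinase gene Ak4 and the lactate exporter gene Slc16a3, at differences of 0.14, 0.14 and 0.16. For S100a4 they were the connexin gene Gjb5, the growth factor gene Fgf7 and the kinesin gene Kifc1, at 0.038, 0.12 and 0.13. For S100a6 they were Spag5, encoding a mitotic spindle protein, the kinesin gene Kifc5b and Troap, at 0.061, 0.071 and 0.075. Gjb5 and Kifc5b were low, at 0.66 to 2.13 and 0.80 to 1.86 FPKM in WT, where the added 1 shrinks differences. Their ratios of mean FPKM, A2ARKO over WT, were 3.76 and 2.66, against 2.48 for S100a4 and 1.83 for S100a6. Fgf7 read 77.9, 70.0 and 59.2 FPKM in A2ARKO, against 23.8, 20.25 and 38.15 FPKM in WT. Its highest WT library was replicate 3, as for S100a4, a likeness that the choice by profile favours. In A2ARKO Fgf7 was highest in replicate 1, and S100a4 in replicate 2. Kifc1 and Kifc5b are similar copies, and how their reads were divided is uncertain.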

How the data were processed

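RNA of pooled litters (3 A2ARKO, 3 WT) was sequenced on an Illumina HiSeq instrument, per the labels' protocols. The authors deposited 1 table of FPKM, rounded to 2 decimals. HTSeq and mm10 are named in the submitters' processing notes; the aligner, tool versions, annotation, gene lengths and use of strand were not stated in the sources used here. FPKM give no counting error, and a few very abundant transcripts in a library lower its other values. Column sums ranged from 231094 to 300779.

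The 11595 genes with 3 or more libraries at 1 FPKM or above were fitted with limma 3.58.1 in R 4.3.3 (lmFit, eBayes with trend) on log2(FPKM + 1) with genotype as the only term and two-sided tests. Benjamini-Hochberg adjustment ran over every tested gene, and an adjusted p below 0.05 was a call. Log2 fold changes are differences on that scale, A2ARKO minus WT, and understate changes of low genes. In simulated data, with 50 changed genes of each size, the fit recovered 16% of log2 changes of 0.5 and 70% of changes of 1. It recovered 86% of changes of 2 and 96% of changes of 4. Most changes of 0.5 were thus missed. Changes were placed only in genes above a minimum mean level, and noise was drawn independently for each gene and library. The rates need not hold for low genes such as S100a8, or where many genes deviate together in a library.

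Depth came from genes of at most 150 bases, where FPKM times GENCODE M21 exon length took steps: 99.6% or more of values up to 10 reads were whole within 0.1 read. The authors' lengths may differ, so read numbers are approximate. No pair of replicates was as close as sampling noise (the closest, A2ARKO replicates 2 and 3, differed 20.3 times more by median chi-square). Positions are from GENCODE M21 (GRCm38) and match the stated build; 45114 of 47480 symbols matched 1 gene. Upstream sequences are from RefSeq GRCm38.p6.

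All 10 S100 genes are named, with every other S100 gene in the table. From each list up to 4 called genes with the largest change are named, or up to 2 with the smallest p; the genes most alike are 3 for each of the 3 S100 genes with the largest change. Other genes (Tlr4, Ager, Fgf1, Il1a, Anxa2, Myh9, Cacybp, Camp, marker genes) were named after their values were seen. The members and lists were chosen with earlier results of these data known. Alternatives were other pseudocounts (0.1, 0.5), other filters, rescaling, quantile normalization, a replicate block, no trend, library weights, and leaving out each library.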

Additional observations from a re-analysis of the deposited data

How the results depend on the processing

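S100a4, S100a6, S100a11, S100a13, S100a16, S100a1, S100a8 and S100b kept a log2 fold change above 0 under every alternative that gave them a value. With each library left out in turn, the number of genes called lay between 50 and 900 (589 with all), of S100 genes between 0 and 2 (2 with all) and of receptor and partner genes between 0 and 5 (5 with all). The S100 genes called were not the same: S100a1 and S100a13 without WT replicate 1, S100a8 alone without WT replicate 2, and S100a4 and S100a6 without WT replicate 3. None was called without any 1 of the A2ARKO libraries, and no such fit kept both S100a4 and S100a13. The log2 fold changes in these fits ranged from 1.18 to 1.59 for S100a4, 0.74 to 0.97 for S100a13, 1.01 to 1.76 for S100a1, 0.78 to 1.13 for S100a6, 0.055 to 1.12 for S100b, 0.083 to 1.20 for S100a8, -1.55 to 0.038 for S100a9, -0.25 to 0.0085 for S100a10 and -2.60 to -1.99 for Adora2a. S100a10 changed sign without A2ARKO replicate 1, and S100a9 without WT replicate 2. With no filter on low values 213 genes, 0 S100 genes and 3 partners were called (5 S100 genes had an unadjusted p below 0.05); S100a4 (1.34), S100a13 (0.84) and Adora2a (-2.25) had adjusted p of 0.101, 0.0825 and 0.0533. Rescaling to the same sum called 348 genes, 0 S100 genes (5 at an unadjusted p below 0.05) and 3 partners, with S100a4 at 1.22 and S100a13 at 0.72. Quantile normalization called 1 S100 gene, S100a13, and left S100a4 at 1.16 (adjusted p = 0.0893).

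With library weights 1363 genes and 5 S100 genes were called: S100a4 and S100a13, and S100a1 (1.56), S100a6 (1.04) and S100a16 (0.54); S100a10 turned to 0.035. With a replicate block 2 genes, 0 S100 genes (5 at an unadjusted p below 0.05) and 0 partners were called, and S100a4 (1.34), S100a13 (0.84) and Adora2a (-2.25) did not pass. The counts of S100 genes at an unadjusted p, here and above, have no share of all tested genes beside them and are descriptions. The labels name no shared litter or day for equal replicate numbers, so the main fit has no block. Deviations of same-numbered libraries correlated at -0.52, -0.33 and -0.39. With 3 libraries per genotype these values cannot exclude a shared day. S100a8 could not be tested with 1 FPKM required in all 6 libraries. The causes of these shifts were not tested. The 3 libraries per genotype limit every call, and for S100a9 the depth leaves 0 to about 1 read in 5 libraries.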

Other observations

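Genes that lie among or beside the chromosome 3 S100 genes were looked at as well. Within 200 kb of the stretch from S100a1 to S100a9, 6 genes outside the S100 family were tested, with log2 fold changes from -0.37 to 0.53 (median 0.066). Ilf2, encoding an RNA-binding protein, rose, at 10.9, 10.9 and 10.2 FPKM in A2ARKO, against 6.35, 7.64 and 7.29 FPKM in WT (limma adjusted p = 0.0338). The other 5 were Chtop, Gatad2b, Ints3, Slc27a3 and Snapin and did not pass. No other tested gene lay within 200 kb of S100a11 and S100a10. Adipocyte markers, a further cell type beside cartilage, summed to 46.3 to 110 FPKM in A2ARKO and 33.8 to 40.8 FPKM in WT. Pparg was called higher of 5 tested, where 3.31% of all tested genes were.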
